A study of Homo sapiens with 30 samples.

Results

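The comparison described here is that of mock exposed BEAS-2B cells at the labelled times of 10 min and 55 min, kept from contact with pollen. It covers 6 arrays of the 30 in the series, chosen by their labels for condition (air) and time, with 3 arrays at each time. BEAS-2B is a human line derived from bronchial epithelium and immortalized with a viral antigen. In all groups the cells had been grown on Transwell inserts and kept at the air-liquid interface for 24 h, and the cultures stayed at 37°C and 5% CO2. Mock exposed cells were placed in the sedimentation chamber, into which pressured air at 0.5 bar was released without pollen reaching them, and the study takes the air itself not to have reached the cells either. For the array controls the study describes a fine mesh that kept pollen out of the wells during the same run. Elsewhere it describes the mock exposure as devoid of pollen. Pollen-exposed cells received 10 mg of whole birch pollen in the same way, and the label of the mock samples gives the 10 mg as well. Sedimentation took 10 min, after which the study returned the cells to the incubator for the indicated times. Whether these times count from the start or from the end of the exposure is not settled by the labels. Cells that never left the incubator were not analysed here, so that a change already complete at 10 min could not be seen. The methods place the repeats of the experiment on separate days, and all cultures came from a single line.

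Handling of cultured cells can activate mechanical and growth factor signalling, and the first genes to respond to such signals are transcribed within minutes by factors already present in the cell. These immediate early genes encode mostly transcription factors (FOS, EGR and NR4A families) and feedback inhibitors such as dual specificity phosphatases, and their mRNAs are short-lived. The largest family of human transcription factors, the zinc finger proteins with a KRAB domain, lies mostly in clusters on chromosome 19 and is best known for silencing transposable elements.

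Values are scaled levels, that is, the log2 of the background-subtracted signal of a probe less the 75th percentile of its array, so that 0 is the level of a bright probe and a difference of 1 is a doubling. Levels are compared between arrays and not between probes. All 3 arrays of 10 min were on 1 slide together with the 55 min replicate 1, and the 55 min replicates 2 and 3 were on another slide. Of the probes of an array, 47.5% to 56.8% were well above background at 10 min and 55.3% to 59.3% at 55 min. Of 16 markers of airway epithelium, such as KRT7, KRT18 and EPCAM, 16 were well above background on all 6 arrays, with a summed log2 level of 8.29 to 8.58 at 10 min and 8.28 to 8.37 at 55 min. Of 12 mesenchymal genes 11 were as well, with a summed level of 6.83 to 7.40 and 7.0 to 7.06. Of the leukocyte markers 3 of 8, of the endothelial ones 2 of 6, of the ciliated ones 1 of 5 and of the secretory ones 4 of 5 were above background on all 6 arrays, and MS4A1, PECAM1, TEKT1 and MUC5B on none. The collagen gene COL1A1 was at -1.21, -1.33 and -1.09 at 10 min and at 0.76, -0.46 and -1.50 at 55 min, so that the 55 min replicate 1 stood highest and the groups overlapped.

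At 55 min a small set of genes differed from 10 min. Of 32103 probes tested, 60 (0.187%) were called by limma, that is, they had a Benjamini-Hochberg adjusted p under 0.05 and changed 1.1-fold or more, and of these 37 were higher (0.115%) and 23 were lower (0.0716%) at 55 min. Taking 1 probe for each of 24515 gene names, 33 genes were up-regulated (0.135%) and 17 were down-regulated (0.0693%). The up-regulated ones fell into 7 protein coding genes, with CCN2, NR4A3, DUSP5 and HES1 in the lead, and 26 noncoding or unannotated transcripts, 24 of them with a mean level over all 30 arrays below -5. The down-regulated ones were 16 protein coding genes, of which 8 were zinc finger genes, and 1 probe without a gene name, and all 17 were well above background on all 6 arrays. In none of the 50 genes did the arrays of both times overlap, as was also so for 12.2% of all genes tested on the higher side and 8.77% on the lower side. The plot of the change against the level shows both sets.

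**Figure D1:**
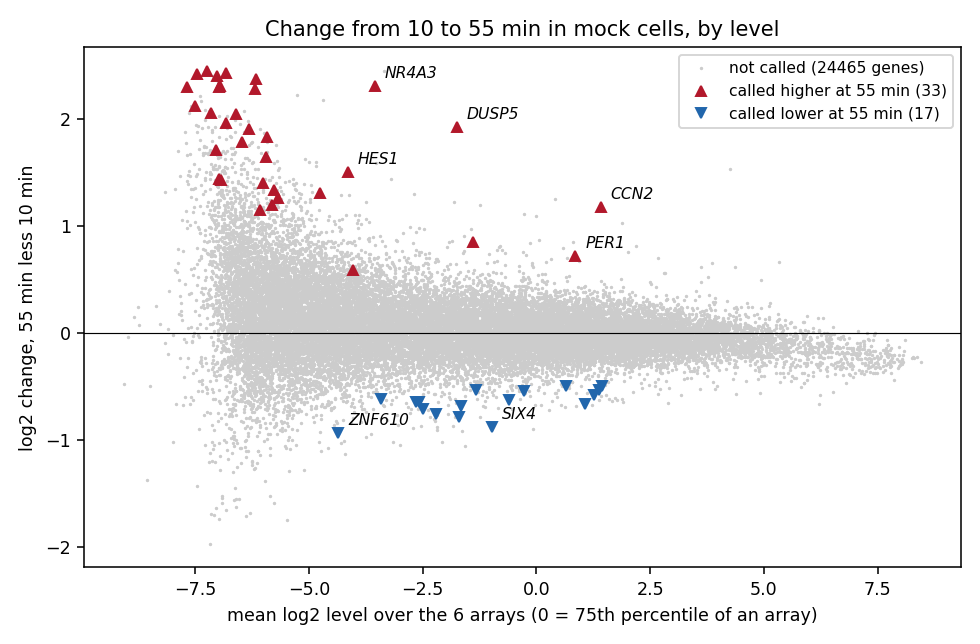
Each point is 1 of 24515 genes, with its mean log2 level over the 6 arrays on the x axis and its log2 change from 10 to 55 min on the y axis. The 33 genes called higher (red, pointing up) lie mostly at the dim end, apart from a few such as CCN2, NR4A3, DUSP5, HES1 and PER1, and the 17 called lower (blue, pointing down) lie at higher levels.

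The number of calls rested on the spread shared between all 30 arrays and on single arrays. The 6 arrays alone gave 0 calls in limma (smallest adjusted p = 0.232), although an unadjusted p under 0.05 was reached by 2983 probes that were higher and 1381 that were lower. Without the 10 min replicate 2, the 10 min replicate 3, the 55 min replicate 2 or the 55 min replicate 3 there were 10, 30, 12 and 8 calls, and without the 55 min replicate 1, which shared the slide of the 10 min arrays, there were 200. With slide as a fixed block 9 probes were called, of which 1 (CCN2) was among the 60, and within slide 1 the call was NR4A3 alone. All 60 probes kept the sign of their change within slide 1, which follows from the absence of overlap between the times in these probes. Of 24 called genes, namely the protein coding ones and HOTAIR, 5 were called with each of the 6 arrays left out in turn, namely CCN2, NR4A3, DUSP5, SIX4 and ZNF786.

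The matricellular protein CCN2, also known as connective tissue growth factor, is a target of the YAP coactivator and of serum response factor. Its level (probe at chr6:132270130-132270189 on hg19) was 0.61, 0.91 and 0.94 at 10 min and 1.82, 2.06 and 2.12 at 55 min. The groups did not overlap, and the change was 1.18 ± 0.12 on the log2 scale (SE, n = 3 at each time), or 2.27-fold (limma, adjusted p = 4.62e-05). Later the level was 0.79 ± 0.03 (SD, n = 3) at 2h25 min, -0.82 ± 0.07 at 6h50 min and -1.78 ± 0.17 at 24 h, so that the means lay near the level of 10 min and then below it.

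The orphan nuclear receptor NR4A3 (chr9:102628985-102629044) stood at -4.73, -4.71 and -4.67 at 10 min and at -3.05, -2.62 and -1.50 at 55 min. The 10 min arrays lay close together, the 55 min arrays were spread over more than a doubling, and all of them were higher. The change was 2.31 ± 0.26, or 4.97-fold (limma, adjusted p = 0.000104), and 1.65 for the 55 min array on the slide of the 10 min arrays. The level was still -2.69 ± 0.30 at 2h25 min, and -4.23 ± 0.15 at 6h50 min.

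DUSP5, a nuclear phosphatase that inactivates the MAP kinase ERK, was measured at -2.54, -2.79 and -2.82 at 10 min and at -1.39, -0.88 and -0.10 at 55 min, with no overlap. It was up-regulated by 1.93 ± 0.24, or 3.80-fold (limma, adjusted p = 0.000387). HES1, a transcriptional repressor downstream of Notch that oscillates in many cells, was at -4.86, -5.09 and -4.71 and then at -3.63, -3.35 and -3.17. Its change was 1.51 ± 0.22 (limma, adjusted p = 0.0039), and the call was lost without the 55 min replicate 3 (adjusted p = 0.0521). Both had moved part of the way back at 2h25 min, to -1.59 ± 0.47 for DUSP5 and -4.40 ± 0.17 for HES1, with all arrays still above those of 10 min.

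The clock gene PER1, which responds quickly to cAMP and glucocorticoid signals, rose from 0.56, 0.48 and 0.45 to 1.21, 1.11 and 1.34. Its change was smaller, 0.72 ± 0.13 (limma, adjusted p = 0.0138), but the arrays of each time lay close together, and on slide 1 alone it was 0.71. The deubiquitinase gene USP7 rose by 0.59 ± 0.11 (limma, adjusted p = 0.0144) and stayed up, at -3.39 ± 0.19 at 24 h against -4.33 ± 0.24 at 10 min. CYP1A1, a cytochrome P450 and the classical target of the aryl hydrocarbon receptor, was well above background on 1 of 3 arrays at 10 min and on 3 of 3 at 55 min. It was measured at -6.48, -7.30 and -6.37 and then at -5.28, -5.66 and -5.0 (change 1.40 ± 0.26, limma, adjusted p = 0.0197). The long noncoding RNA HOTAIR was at -6.32, -6.42 and -6.17 and then at -5.97, -4.65 and -4.50, and the 2 arrays on the other slide were those far above (limma, adjusted p = 0.0484). The calls of PER1, USP7, CYP1A1 and HOTAIR were each lost with 2 to 5 of the 6 arrays left out in turn, the 10 min replicate 2 and the 55 min replicate 3 among them, with adjusted p up to 0.387.

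**Figure D2:**
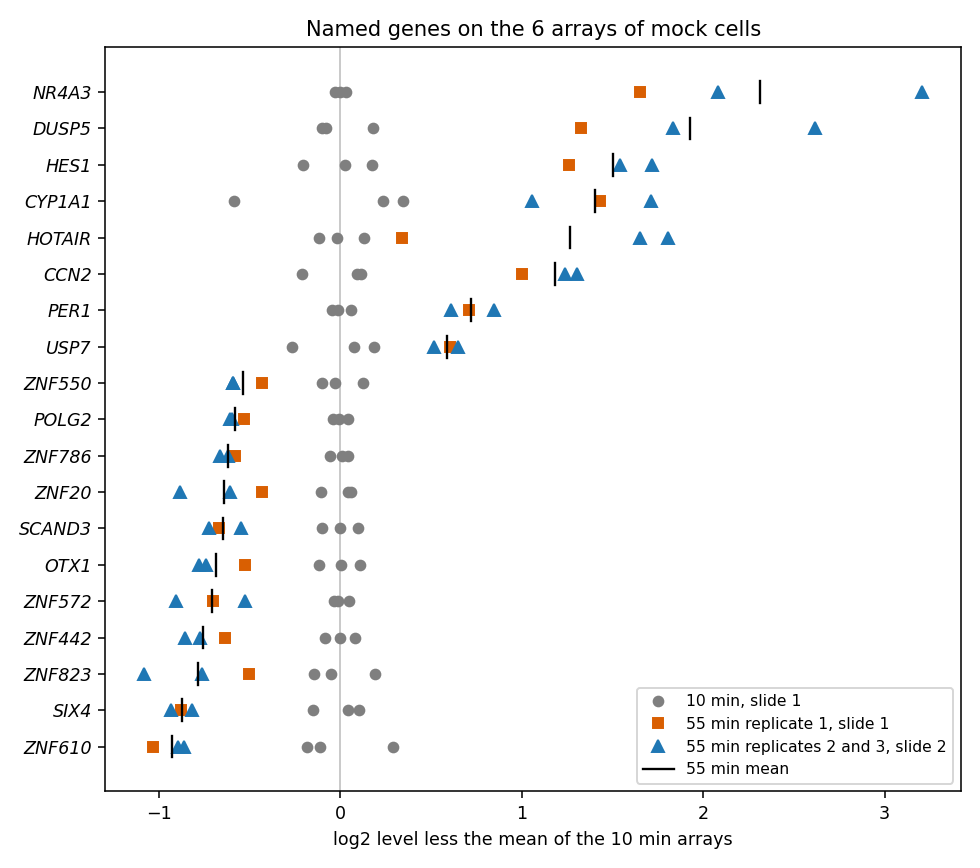
For each gene on the y axis the points give the log2 level on each of the 6 arrays less the mean of the 10 min arrays, in grey for 10 min, in orange for the 55 min array on the same slide and in blue for the 55 min arrays on the other slide, and the black bar is the 55 min mean. The absence of overlap between the times was a condition for naming the genes shown. For CCN2, NR4A3, DUSP5, HES1 and HOTAIR the orange point lies nearest to the 10 min points.

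The promoters of NR4A3, HES1 and CCN2 are shown because these genes were among those that led the rise by p and the matches in them differ. DUSP5 led as well, but no promoter of it was among the sequences used. The 250 bases before the start of each gene shown are taken from RefSeq (GRCh38.p14), written 5′ to 3′ on the strand of the gene, with matches in capitals. The matches searched for, on both strands, were the CRE core TGACG, bound by CREB and ATF factors, the full CRE that contains it, the AP-1 site TGANTCA, the TATA box TATAAA, the CArG box and the NF-kB site. GC boxes (GGGCGG) were counted but are not in capitals.
NR4A3, chr9:99821635-99821884, plus strand: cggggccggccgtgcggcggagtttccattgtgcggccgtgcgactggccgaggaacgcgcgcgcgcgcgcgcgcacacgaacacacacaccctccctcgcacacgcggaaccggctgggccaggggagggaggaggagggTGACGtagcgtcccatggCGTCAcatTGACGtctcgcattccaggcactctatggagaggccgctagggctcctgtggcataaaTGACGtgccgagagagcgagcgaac
HES1, chr3:194135898-194136147, plus strand: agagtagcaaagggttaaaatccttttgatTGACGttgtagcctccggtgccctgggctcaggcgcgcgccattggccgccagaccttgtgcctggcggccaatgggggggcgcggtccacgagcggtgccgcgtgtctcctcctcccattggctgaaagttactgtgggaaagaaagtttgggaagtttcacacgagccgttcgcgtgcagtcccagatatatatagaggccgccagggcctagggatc
CCN2, chr6:131951373-131951622, minus strand: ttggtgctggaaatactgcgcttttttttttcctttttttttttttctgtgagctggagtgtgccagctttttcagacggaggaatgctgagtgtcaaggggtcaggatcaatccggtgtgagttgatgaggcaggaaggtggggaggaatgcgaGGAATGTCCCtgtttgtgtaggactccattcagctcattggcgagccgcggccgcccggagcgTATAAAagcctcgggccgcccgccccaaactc

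NR4A3 held 4 CRE cores, 25, 83, 91 and 109 bases before the start at their far end, and HES1 held 1, at 220 bases. CCN2 held none, but a TATA box at 32 bases and a match to the NF-kB site at 95 bases. Of 35116 promoters of that length in the table, 21.2% held a CRE core, 10.7% a TATA box and 5.21% an NF-kB match. Among the immediate early regulators of 3 lists, 28 of the 38 tested genes were matched to a promoter, and 15 of these held a CRE core, 2 a full CRE (1.65% of all promoters), 2 a CArG box (1.16%), 0 an AP-1 site (6.57%) and 18 a GC box (42.6%). A match is a run of letters and was not tested as a binding site. No motif for YAP-dependent binding was searched for, so the matches in CCN2 do not bear on its regulation by YAP.

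Of the 38 tested genes of the AP-1 and ATF, the EGR and NAB and the NR4A, IER and KLF lists, 2 were called (NR4A3 and HES1), both higher, as were 0.135% of all genes. A positive change was found in 33 (53.2% of all genes had one). At an unadjusted p under 0.05, 19 were higher, where 6.67% of all genes were. Their median change was 0.57, against 0.02 over all genes, and 0 were lower at that p. The median difference of these genes from the 10 min mean was 0.22 on the 55 min replicate 1, 0.44 on replicate 2 and 0.99 on replicate 3. The 55 min arrays thus differed among themselves in this set by more than the 10 min arrays, which lay between -0.04 and 0.03.

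FOSB, a partner of JUN in the AP-1 factor, was at -4.86, -4.68 and -4.20 at 10 min and at -3.03, -3.79 and 0.42 at 55 min. The 55 min replicate 3 stood far above the others, and the change of 2.45 ± 0.69 was not called (limma, adjusted p = 0.165). EGR2 was at -4.92, -5.06 and -4.84 and then at -4.63, -3.68 and -2.65 (limma, adjusted p = 0.144). EGR1, one of the first genes to respond to growth factors, was at 4.04 ± 0.05 (SD, n = 3) at 10 min. It was at 4.67 ± 0.71 at 55 min and at 2.87 ± 0.52 at 2h25 min. Its change to 55 min of 0.62 ± 0.30 was not called (limma, adjusted p = 0.471). Further members with changes that were not called were MAFF at 1.09 ± 0.32, FOSL2 at 0.59 ± 0.17, RHOB at 0.71 ± 0.19 and BHLHE40, a clock-associated repressor, at 0.67 ± 0.16 (limma, smallest adjusted p = 0.0961, of BHLHE40).

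The other lists of signalling genes held 1 call or none, where 0.135% of all genes were called higher and 0.0693% lower. In the MAP kinase feedback list DUSP5 was called of 15 genes, with a median of 0.18 (-0.07 within slide 1), and the ERK phosphatase DUSP6 was at 0.53 ± 0.16 (limma, adjusted p = 0.217). Of 19 YAP targets CCN2 was called, the median change was 0.10, and the related CCN1 was at 0.67 ± 0.20 (limma, adjusted p = 0.188). Of 15 clock genes PER1 was called, and the median was 0.05. Of 13 ID genes and genes of TGF-beta feedback 0 were called, but 13 had a positive change, with a median of 0.24.

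Inflammatory genes were uneven between the arrays of 55 min. IL6, a cytokine of the acute phase, was at -0.69, -0.84 and -0.99 at 10 min and at -0.97, 0.08 and 1.73 at 55 min. The groups overlapped, the change was 1.12 ± 0.53 (limma, adjusted p = 0.451), and within slide 1 it was -0.13. The neutrophil chemokine CXCL2 was at 1.92, 1.87 and 1.92 and then at 0.55, 1.01 and 3.07, that is, below the 10 min arrays on 2 arrays and above them on 1, and its change of -0.36 ± 0.49 was not called (limma, adjusted p = 0.817). TNFAIP3, an inhibitor of NF-kB signalling, and IL1B were at 0.26 ± 0.29 and 0.38 ± 0.23 (limma, adjusted p = 0.782 and 0.562). For IL6, CXCL2, TNFAIP3 and IL1B the 55 min replicate 1 was the lowest of the 55 min arrays and replicate 3 the highest. Of 20 cytokines and chemokines and of 21 genes of the NF-kB system 0 were called (0.135% of all genes were called higher and 0.0693% lower). Their medians were 0.28 and -0.02, and within slide 1 these medians were -0.19 and -0.14.

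Of all genes 0.135% were called higher and 0.0693% lower, a share at which lists this short mostly hold no call. Lists of stress and housekeeping functions held 0 calls. This was so for 16 heat shock chaperones (median 0.03), 10 genes of metallothioneins and zinc transport (0.01), 19 genes of the unfolded protein and integrated stress response (-0.03), 17 p53 targets (0.06), 19 NRF2 targets (0.03), 30 interferon-stimulated genes (0.04) and 20 genes of glycolysis and hypoxia (-0.06). The lipoprotein lipase inhibitor ANGPTL4 of the last list was at -0.12, -0.84 and 0.28 and then at 1.19, 1.25 and 0.64, with a change of 1.25 ± 0.34 that was not called (limma, adjusted p = 0.149). Of 24 genes of oxidative phosphorylation 20 had a negative change (46.7% of all genes did), with a median of -0.12, and the succinate dehydrogenase subunit SDHB was at -0.33 ± 0.10 (limma, adjusted p = 0.197). Genes with a mean level over all arrays above 2, SDHB among them, had a median change of -0.06. Of 20 genes of cholesterol synthesis 15 had a negative change, with a median of -0.14, but within slide 1 their median was 0.18. The remaining lists, of EGF receptor ligands, mRNA decay, the actin cytoskeleton, the plasminogen system, glucocorticoid receptor targets, cell division and ribosome biogenesis, held 0 calls among 8 to 35 genes each, with medians between -0.05 and 0.19. Within slide 1 the sign of the median also turned for p53 targets (-0.18), mRNA decay (-0.20), the plasminogen system (-0.11) and glucocorticoid receptor targets (0.17), among others with medians nearer to 0. The study names 15 genes as up-regulated in mock cells at 2h25 min against cells that never left the incubator, which is another comparison. Of this list, chosen on samples of this series, DUSP5 was called at 55 min against 10 min and 13 had a positive change.

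Among the down-regulated genes the homeobox factor SIX4 led by p. It was at -0.49, -0.43 and -0.69 at 10 min and at -1.41, -1.35 and -1.47 at 55 min, with no overlap and a change of -0.87 ± 0.11 (limma, adjusted p = 0.000387). Within slide 1 the change was -0.88, and at 2h25 min the level was -0.85 ± 0.02, between both. The brain and sense organ homeobox gene OTX1 fell by 0.68 (limma, adjusted p = 0.0308).

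POLG2, the accessory subunit of the mitochondrial DNA polymerase, fell by 0.58 (limma, adjusted p = 0.0134), and OXSM, an enzyme of mitochondrial fatty acid synthesis, by 0.53 (limma, adjusted p = 0.0329). SCAND3 fell by 0.65 (limma, adjusted p = 0.0308) and MACIR, a regulator of macrophage immunometabolism, by 0.49 (limma, adjusted p = 0.0153). Each of these 4 genes lost its call with 3 or 4 of the 6 arrays left out in turn, as did OTX1.

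Zinc finger genes made up 8 of the 17 down-regulated genes. ZNF610 was at -4.0, -3.60 and -4.07 and then at -4.92, -4.75 and -4.78, and fell by 0.93 (limma, adjusted p = 0.00567). ZNF786 was at -0.34, -0.24 and -0.27 and then at -0.86, -0.90 and -0.94, and fell by 0.62 (limma, adjusted p = 0.00245). ZNF442 was at -1.84, -1.76 and -1.92 and then at -2.47, -2.61 and -2.69, and its second probe was called as well, at -0.65 against -0.75. In these 3 genes no array of 55 min reached the range of 10 min, which was a condition for naming them. ZNF823 (-0.78), ZNF572 (-0.71), ZNF20 (-0.64), ZNF550 (-0.54) and ZNF571 (-0.53) were the others (limma, adjusted p from 0.0138 to 0.0325), and a second probe of ZNF550 was at -0.18 and a second probe of ZNF20 at -0.53, both not called. With each of the 6 arrays left out in turn, ZNF786 was called in 6 cases and ZNF610 in 5. ZNF442, ZNF572 and ZNF823 were called in 3 of the 6, and ZNF20, ZNF550 and ZNF571 in 2.

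Zinc finger genes as a set, looked at after these calls had been seen, lay lower at 55 min. The set was taken by symbol and not by a KRAB domain, so it is not limited to the KRAB family. Of 512 protein coding genes with a ZNF, ZFP, ZSCAN or ZKSCAN symbol, 8 were called lower (1.56%, against 0.0693% of all genes) and 0 higher (0.135% of all genes). A negative change was found in 381, and the median change was -0.14 against 0.02 over all genes. At an unadjusted p under 0.05, 137 were lower (26.8%, against 4.16% of all genes and 3.67% of the genes outside the set) and 14 were higher. On chromosome 19 the median of 237 zinc finger genes was -0.22, and on the other chromosomes the median of 275 was -0.09. The 1232 other genes tested on chromosome 19 lay the other way, with a median of 0.12 and 856 positive changes. Many members of the set are similar in sequence, and how far a probe also binds the RNA of other members was not tested.

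The 18 zinc finger genes with probes between ZNF823 and ZNF709 on hg19 (chr19:11832404-12575490), a stretch chosen because 3 of the called genes lie in it, had a median change of -0.55. Of these, 17 had a negative change, from -0.78 for ZNF823 to -0.13 for ZNF763, and ZNF491, a dim one, was at 0.10. The times did not overlap in 12 of the 18 (8.77% of all genes on the lower side), among them ZNF44 (-0.65), ZNF799 (-0.66) and ZNF433 (-0.50), which were not called. For ZNF709, at the end of the stretch, the brightest probe was not called, at -0.51. A second probe of ZNF709 was called, at -0.83 (limma, adjusted p = 0.0079). The median of the stretch was -0.32, -0.58 and -0.70 on the 3 arrays of 55 min, and between -0.57 and -0.28 on the mock arrays of 2h25 min to 24 h. Over all 512 genes the 3 arrays of 55 min were at -0.11, -0.17 and -0.16, those of 2h25 min at -0.01, -0.11 and -0.10, and those of 24 h at -0.11, 0.00 and -0.03. The arrays of 6h50 min were between -0.03 and 0.02, where the median of all genes was between -0.20 and -0.13.

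**Figure D3:**
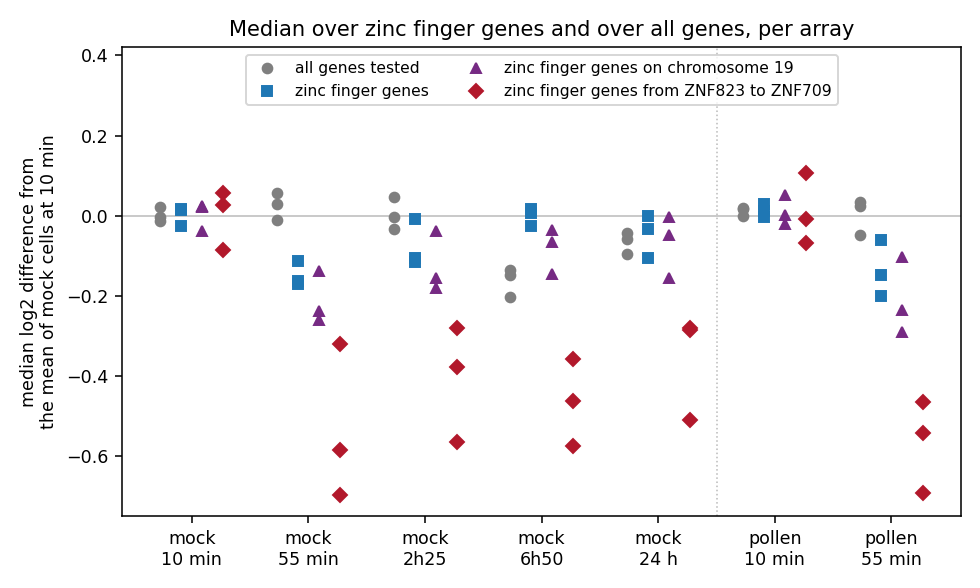
Each point is the median over a set of genes on 1 array of the log2 difference from the mean of the mock arrays at 10 min, by group on the x axis, for all genes tested (grey), zinc finger genes (blue), those on chromosome 19 (purple) and those between ZNF823 and ZNF709 (red). All 3 mock arrays and all 3 pollen arrays at 55 min lie below 0 for the 3 zinc finger sets, down to -0.70, and the red points stay below 0 at the later times.

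The remaining calls were noncoding or unannotated transcripts, 26 of the 33 genes called higher, most of them dim. They carry accession-like names, apart from a few such as SH3RF3-AS1, ACOXL-AS1, SLC25A25-AS1 and HOTAIR, and changed by 0.85 to 2.45 on the log2 scale. At 10 min 16 of them were well above background on 0 of 3 arrays, so that these have only a lower bound, from at least 1.26-fold to at least 3.56-fold higher. SH3RF3-AS1, antisense to SH3RF3, was the brightest, at -1.52, -2.07 and -1.87 and then at -1.11, -0.84 and -0.96 (change 0.85 ± 0.16, limma, adjusted p = 0.0252). In 25 of the 26 the 55 min replicate 1 was the lowest of the 3 arrays of 55 min. The median difference of the 26 from the 10 min mean was 1.41 on that array and 1.92 and 2.50 on the others, and between 0.34 and 0.73 on the pollen arrays of 10 min. On the later mock arrays it was between 1.69 and 2.34 at 2h25 min, between -0.23 and 0.04 at 6h50 min, when all arrays were on 1 further slide, and between 1.53 and 2.06 at 24 h.

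Among the genes tested, dim ones lay higher at 55 min. The median change ran from 0.38 for the 880 genes with a mean level over all arrays below -7, through 0.15 for those between -6 and -5, to -0.06 for the 3764 genes above 2. Within slide 1 these 3 medians were 0.52, 0.19 and -0.09, and in pollen-exposed cells they were -0.45, -0.06 and 0.04. Over the genes with a mean level below -5, the median difference from the mean of the mock arrays of 10 min was -0.99 on the pollen array of another design at 55 min, but 0.22 and 0.15 on the other pollen arrays of 55 min, and 0.26, 0.10 and 0.30 on the mock arrays of 55 min. Among the 27178 probes detected above background on each of the 6 arrays, 33 were called, 11 of them higher and 22 lower. A dim probe was tested if some group, which could be that of 55 min, had it above background on its 3 arrays. Without this filter, over 58178 probes, the median change was -0.08, against 0.02 over the 32103 probes tested. At an unadjusted p under 0.05 in limma, 2997 were then lower and 2600 higher. The part of background and of slide in the calls of dim transcripts, and of the filter in the medians of dim genes, was not tested.

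Pollen-exposed cells, which have arrays of their own at both times, went through the same chamber. From 10 to 55 min 270 probes were called in them (0.841%), 135 in each direction. Of the 60 probes called in mock cells 28 were called the same way, which is 46.7% of the 60 and 10.4% of the 270, and all 60 had the same sign, as 63.5% of all probes had. All pollen arrays of 10 min were on slide 1 and none of those of 55 min was, so that slide and time cannot be told apart in pollen-exposed cells, whereas in mock cells the 55 min replicate 1 shared slide 1. CCN2 changed by 2.05, NR4A3 by 3.25, DUSP5 by 2.62 and HES1 by 1.29 in pollen-exposed cells, and SIX4 by -0.47 and ZNF442 by -1.17, all of them called. CYP1A1 at 0.53 and ZNF550 at -0.25 were not called there (limma, adjusted p = 0.348 and 0.253). IL6 was called in pollen-exposed cells at 2.59 (limma, adjusted p = 0.0194). The change from 10 to 55 min differed between both exposures for 0 probes in limma (smallest adjusted p = 0.945, with 327 probes more positive and 884 more negative with pollen at an unadjusted p under 0.05), which does not show that they changed alike.

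**Figure D4:**
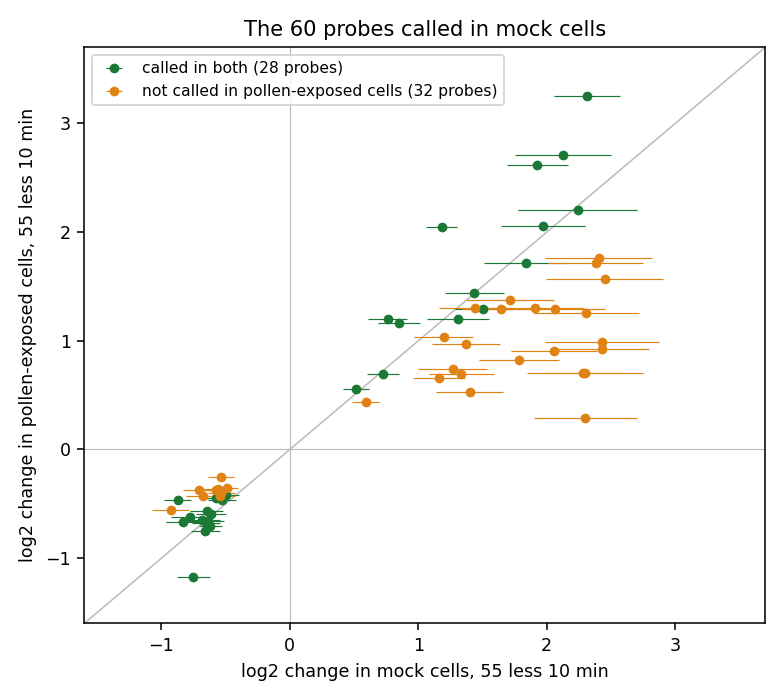
Each point is 1 of the 60 probes called in mock cells, with its log2 change from 10 to 55 min in mock cells on the x axis (bars are SE) and in pollen-exposed cells on the y axis, and the diagonal marks equal changes. All 60 have the same sign on both axes, and the 28 in green were called in both.

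Over the later times the genes called at 55 min took different courses, given here as levels without a test. NR4A3, DUSP5, HES1 and PER1 were still above their 10 min levels on all arrays of 2h25 min, and PER1 was back at 0.47 ± 0.11 at 6h50 min. DUSP5 was at -2.49 ± 0.09 at 6h50 min and higher again, at -1.43 ± 0.13, at 24 h. ZNF442 stayed low, at -2.43 ± 0.14, -2.37 ± 0.14 and -2.29 ± 0.17 at the 3 later times against -1.84 ± 0.08 at 10 min. SIX4 and ZNF786 were near their 10 min levels at 24 h, at -0.38 ± 0.09 and -0.31 ± 0.09.

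**Figure D5:**
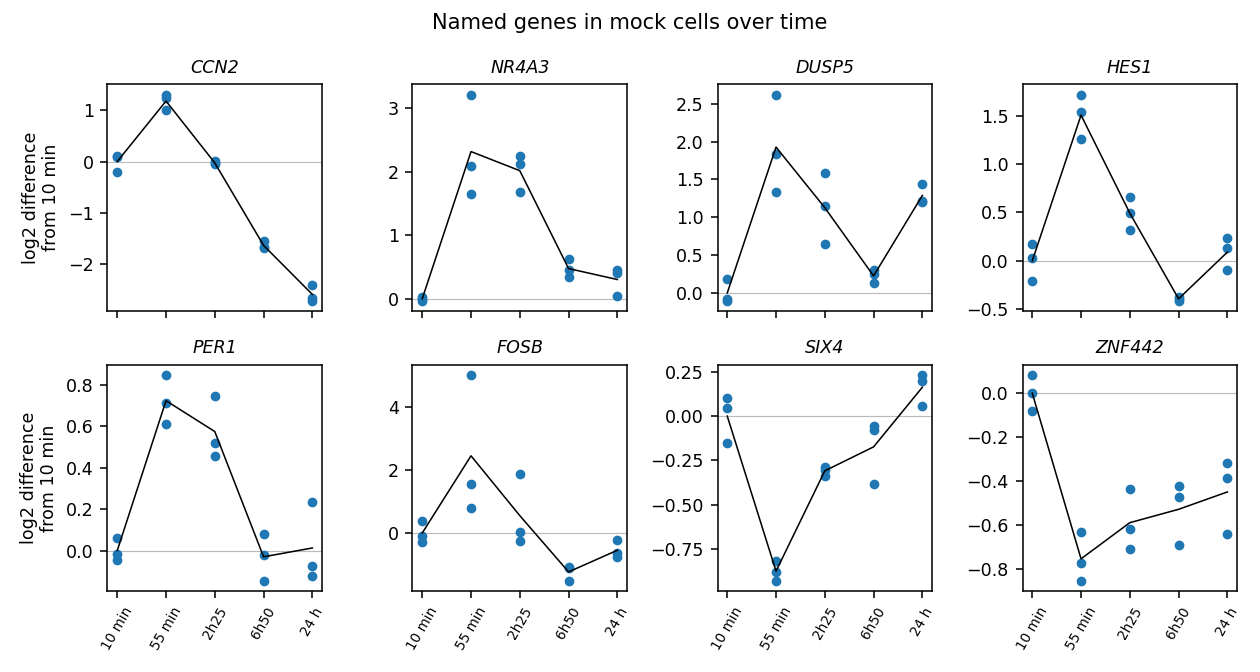
Each panel is 1 gene, with the labelled time of the mock exposure on the x axis (not to scale) and the log2 difference from the mean of the 10 min arrays on the y axis, with 1 point per array and a line through the means. CCN2, NR4A3, DUSP5, HES1, PER1 and FOSB are highest at 55 min by their means, SIX4 and ZNF442 lowest, and the 3 arrays of FOSB at 55 min lie far apart.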

How the data were processed

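The authors deposited one-colour Agilent spot intensities, from which, per the file headers, Feature Extraction 11.0.1.1 had removed the background and the spatial trend, without a scaling across arrays. They also deposited log2 values, used here as an alternative. With limma 3.58.1 in R 4.3.3, spots marked uneven or as outliers were dropped, replicate spots averaged and log2 signals scaled to the 75th percentile of the probes shared by both array designs, since 1 pollen array of 55 min was of another design. A probe was tested if some group had it above background on its 3 arrays. The fit (lmFit, eBayes) took all 30 arrays as 10 group means, with 20 residual and 2.35 prior degrees of freedom. It was also run on simulated data of this comparison, over 23892 probes and without a slide effect. The changed probes were drawn from those with a mean level above -3. Of these it recovered 90% of probes changed by 1 and 99% of those changed by 2 on the log2 scale, with 4 false calls. Recovery of dimmer probes, where most of the higher calls lie, was not simulated. The share of false calls in the measured data, where slide and time partly coincide, was not tested. RefSeq named 33536 probes by accession and 4609 by gene name, and 20056 kept their deposited name. Probe positions are on hg19, per the file headers. The number of arrays limits the precision.

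Members and gene lists were chosen with earlier results of these data known. Each gene was taken from its brightest probe over all arrays. Named were up to 12 called genes with a symbol in each direction, by size of change, without overlap of the times and above background on all arrays of the brighter time, then up to 4 members of each of 26 lists by unadjusted p, and IL6, CXCL2, TNFAIP3, IL1B and the genes the study names for mock cells. The text gives those that bear on a result, and a few are not reported here. OXSM, MACIR, ZNF571, the antisense RNAs, COL1A1 and the ZNF823 to ZNF709 stretch were named after their values had been seen. A bound was computed against the lowest signal above background of each array. Alternatives were other scalings, filters, sets of arrays, weights and blocks.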

Additional observations from a re-analysis of the deposited data

How the results depend on the processing

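Against 60 calls (37 higher, 23 lower), the percentile over each array's own probes gave 25 (24 and 1), normexp with quantile normalization 32 (12 and 20), the log2 values deposited by the authors 157 calls (95 and 62), probes above background on all 6 mock arrays 33 (11 higher), the 15 mock arrays alone 23 (14 and 9), the 6 mock arrays alone 0 (0 and 0), leaving out the array of another design 102 (63 and 39), and array weights 2914 (1585 and 1329). Slide as a fixed block gave 9 (6 and 3), slide as a random block 8 (5 and 3) and slide 1 alone 1 (1 and 0). Of settings chosen after seeing the data, the arrays of 10 and 55 min in the fit gave 0 (0 and 0), with array weights 707 (486 and 221), and leaving out the other design with probes above background on all 6 arrays gave 51 (15 and 36). Leaving out each array in turn gave 8 to 200 calls, 4 to 151 higher and 2 to 49 lower. The share of higher calls was 61.7%, and 96.0%, 68.2%, 54.7% and 37.5% with own-probe percentile, percentile over probes above background, quantile, and normexp with quantile scaling. In pollen-exposed cells, 270 calls became 126 without the filter and 1326 with array weights. The difference between exposures became 1 call with normexp and quantile normalization and 2 without the filter. The cause of these differences was not tested.

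Samples with the same replicate number did not deviate together (r = -0.09, -0.07 and 0.08 over 27178 probes), and a replicate block gave 0 calls (0 higher, 0 lower; smallest adjusted p = 0.385). All 60 probes kept their sign in each setting that tested them (34 in those with probes above background on all 6 arrays), which the absence of overlap fixes where arrays are left out or slide 1 stands alone. The zinc finger median stayed between -0.17 and -0.11 in all settings.

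Among named genes that were not called, the sign turned within slide 1 and with slide as a fixed block for IL6 (-0.13), EREG (-0.061), IL1B (-0.175), TNFAIP3 (-0.35), CITED4 (-0.059) and MT1B (-0.060), with slide as a random block for C8G (-0.0037), and with array weights for CSNK1G2 (-0.0099, or -0.0089 with weights from the arrays of 10 and 55 min). With each array left out in turn it turned in at least 1 case for TNFAIP3 (-0.18 to 0.56), CXCL2 (-1.12 to 0.13), CSNK1G2 (-0.011 to 0.091), CITED4 (-0.032 to 0.18), SOCS3 (-0.11 to 0.050) and MT1B (-0.069 to 0.17).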
